A study of Mus musculus with 54 samples.

Results

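*Vip*, *Vipr1* and *Vipr2* encode vasoactive intestinal polypeptide (VIP) and its receptors VPAC1 and VPAC2. They were chosen as the rows of the deposited count table whose Ensembl identifier belongs to one of these genes, which gave 3 of the 30031 genes in the table, and all 3 passed the filter that left 18941 genes for testing (at least 1 read in more than 6 replicates). The data are RNA-seq read counts from the mouse suprachiasmatic nucleus (SCN), the hypothalamic nucleus that holds the body's master clock. Male C3H/HeH mice aged 10 to 12 weeks, without any genetic change or drug named in the labels, were kept under 12 hr of light and 12 hr of darkness at 150 lux. The SCN was cut out whole by laser-capture microdissection at zeitgeber time (ZT, hours after lights on) 2, 6, 10, 14, 18 or 22, so neurons of its core and its shell were not separated. Each timepoint has 3 biological replicates (A, B and C), each the pooled tissue of 5 mice, and the RNA was amplified before sequencing.

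VIP is cut from a larger precursor in neurons of the ventral part of the SCN, many of which receive input from the retina. It acts on class B G protein-coupled receptors that raise cAMP through the stimulatory G protein. VPAC2 is the main VIP receptor of SCN neurons and is needed for them to keep a common rhythm, whereas VPAC1 is known mainly from the cerebral cortex, the hippocampus, peripheral organs and T lymphocytes. PACAP, a related peptide that reaches the SCN in retinal fibres, binds both receptors and also a receptor of its own, PAC1.

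*Vip* (ENSMUSG00000019772) lies on the plus strand of chromosome 10 of GRCm38 from 5639218 to 5647617. *Vipr1* (ENSMUSG00000032528) lies on the plus strand of chromosome 9 from 121642716 to 121672954, and *Vipr2* (ENSMUSG00000011171) on the plus strand of chromosome 12 from 116077726 to 116146261. An annotated antisense gene, *Gm20658*, runs through *Vipr2*, and its exons share 0 bases with those of *Vipr2*. The sequence just upstream of *Vip* is shown because the cAMP pathway that VIP receptors feed into is known to act on the *Vip* gene through a cAMP response element. The 225 bases of RefSeq's GRCm38.p6 sequence before the RefSeq gene start are given on the plus strand, with the 7 bases TGACGTC in capitals.
*Vip* promoter, chr10:5638968-5639192: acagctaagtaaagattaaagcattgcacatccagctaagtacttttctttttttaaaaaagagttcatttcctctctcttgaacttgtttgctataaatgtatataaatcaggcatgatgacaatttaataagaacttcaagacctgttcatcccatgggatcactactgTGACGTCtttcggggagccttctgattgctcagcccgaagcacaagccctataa
The capitals are the first 7 letters of the full cAMP response element TGACGTCA and lie from -79 to -73 relative to the GENCODE start. TGACGTC was searched for only after the *Vip* sequence had been read. On either strand it is present in 2.78% of 32851 mouse promoter windows of 250 bases. Neither the full element TGACGTCA (1.55% of windows), nor the E-box CACGTG (6.02%), nor the D-box forms TTATGTAA (0.819%) and TTACGTAA (0.113%), nor the nuclear receptor half-site AGGTCA (14%) is found on either strand of the 250-base windows of *Vip*, *Vipr1* and *Vipr2*. TGACGTC lies inside TGACGTCA, so these 2 searches overlap. The *Vipr2* window begins at 116077476, inside the RefSeq gene, which starts at 116077420. The sequence before the RefSeq start of *Vipr2* was therefore not searched.

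The counted reads ranged from 15412981 to 35820945 per replicate (median 25075231). Levels are given as CPM (reads per 1000000 reads of a library after TMM normalization) and as mean ± SD of n = 3 replicates, so each SD describes 3 pools of mice. The study's own PCA plot, whose legend names timepoint and sequencing batch, shows 3 clusters of libraries, which pair ZT6 with ZT10, ZT14 with ZT18 and ZT22 with ZT2. When the 500 most variable genes were used for a PCA, 93.3% of PC1 and 89.7% of PC2 reflected the clusters. The labels do not name the batch of a library, so the clusters are not known to be batches. The paper holds that any batch effects are minimal, from the timing of clock genes, and reports high concordance with qPCR. As every timepoint falls within a single cluster, a batch that followed the clusters could not be told apart from timepoint in a difference between clusters. For this reason ZT10 minus ZT6, ZT18 minus ZT14 and ZT2 minus ZT22, which lie inside clusters, are named as such. The SCN marker genes *Avp*, *Grp*, *Nms*, *Prok2*, *Six6*, *Six3*, *Lhx1*, *Rgs16*, *Syt10* and *Zfhx3* had reads in every replicate.

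*Vip* was among the most abundant transcripts of the dissected SCN and was highest in the middle and late part of the light phase. It ranked 34th of the 18941 genes tested by mean CPM, with 27177 to 68265 reads per replicate. At ZT6 the replicates had 2341, 2697 and 3231 CPM, and at ZT10 they had 2693, 2880 and 2283 CPM. At ZT14, the first timepoint after lights off, they had 1053, 1090 and 747 CPM. All replicates of ZT6 and ZT10 lay above all replicates of the other timepoints. The means were 2756 ± 448 CPM at ZT6 and 963 ± 188 CPM at ZT14, a 2.86-fold difference (log2 1.52).

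In the dark *Vip* moved back up from this low point. The ZT18 replicates had 1137, 1129 and 1741 CPM (mean 1336 ± 351), and the ZT22 replicates had 1884, 1566 and 1504 CPM (mean 1651 ± 204). At ZT2 the replicates had 2148, 2184 and 1087 CPM (mean 1806 ± 623). Replicate C of ZT2 therefore lay at the level of the ZT14 replicates, and the other two ZT2 replicates above those of ZT22. From highest to lowest mean the order was ZT6, ZT10, ZT2, ZT22, ZT18 and ZT14. Replicates overlapped between ZT6 and ZT10, between ZT2 and ZT22 and between ZT22 and ZT18, and did not overlap between ZT10 and ZT2 or between ZT18 and ZT14.

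**Figure D1:**
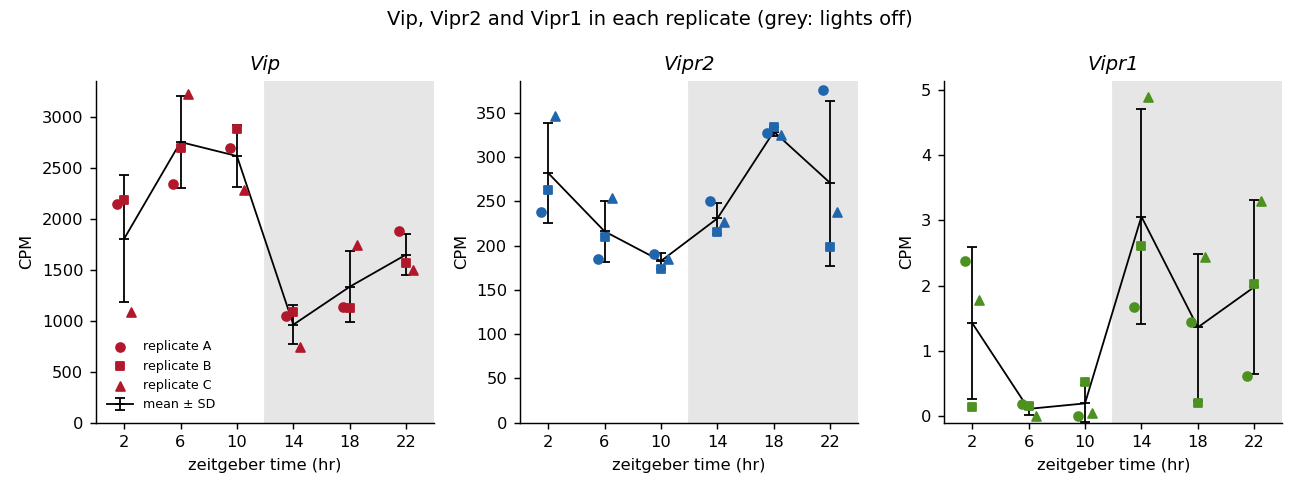
Level (CPM, linear axes with a scale for each gene) of *Vip*, *Vipr2* and *Vipr1* against zeitgeber time (hr), with 1 symbol per biological replicate, the mean ± SD of n = 3 in black and lights off in grey. *Vip* lies between 2283 and 3231 CPM in all replicates of ZT6 and ZT10 and below 2200 CPM in all others, *Vipr2* has its lowest mean at ZT10 and its highest at ZT18, and *Vipr1* stays under 5 CPM.

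*Vip* changed over the 6 timepoints (edgeR quasi-likelihood F-test, q = 0.000513), as did 44% of all genes tested. It also passed JTK_CYCLE for a 24-hr rhythm (p = 0.013, exact null distribution, Bonferroni over 6 lags) with its best lag at ZT6, and 29.9% of all genes tested passed both tests. The fall from ZT10 to ZT14 was the one step between successive timepoints that passed the test, with a log2 difference of -1.44 (SE 0.25, q = 0.000799, 2.72-fold lower at ZT14), and it crosses library clusters. In that step 16.8% of genes were called and the median of all genes was a log2 of 0.12, which became -0.02 with upper-quartile factors, under which *Vip* fell by 1.60. The step from ZT2 to ZT6, also across clusters, had a log2 difference of 0.61 (SE 0.25, q = 0.0664, 33.8% of genes called). It passed the threshold when genes had to reach 10 counts in all replicates (q = 0.039), with the reads recovered from the normalized table (q = 0.0342) and without ZT18 replicate C (q = 0.0448).

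Inside the clusters, 0 of the 3 *Vip* steps were called by edgeR, 0 had an unadjusted p under 0.05 and 0 were called by DESeq2. From ZT6 to ZT10 the log2 difference was -0.07 (95% interval -0.59 to 0.45, q = 0.945, 0.0475% of genes called). From ZT14 to ZT18 it was 0.47 (-0.05 to 0.99, q = 0.425, 0.57% of genes called), and from ZT22 to ZT2 it was 0.13 (-0.39 to 0.65, q = 1, 0.0317% of genes called). The remaining step across clusters, from ZT18 to ZT22, had a log2 difference of 0.31 (-0.21 to 0.83, q = 0.439), where 18.1% of genes were called. Of the variance of the *Vip* timepoint means, 93.5% lay between clusters, against a median of 90.3% for all genes that changed with time.

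**Figure D2:**
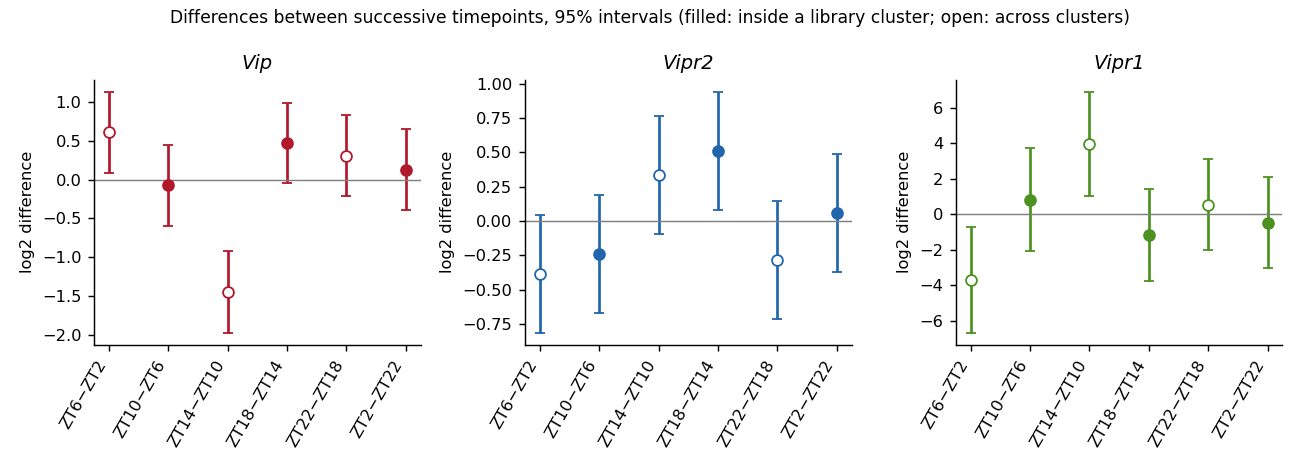
Log2 difference between successive timepoints (later minus earlier, vertical axis with a scale for each gene) for *Vip*, *Vipr2* and *Vipr1*, with 95% intervals from the edgeR fit. Filled points are steps inside a library cluster and open points cross clusters, and the *Vip* fall from ZT10 to ZT14 (-1.44) is the one difference past the threshold of 0.05 after adjustment over all genes.

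Summed markers of SCN neurons were, like *Vip*, higher at ZT6 and ZT10 than at the other timepoints. Unlike that of *Vip*, the mean of this sum was lower at ZT18 and ZT22 than at ZT14. Single markers differed from the sum. *Prok2*, *Rgs16* and *Zfhx3* had higher means at ZT2 than at ZT10, and the others did not. *Nms* was the one marker that, like *Vip*, had its lowest mean at ZT14. The summed level of the 10 SCN neuron markers was 2618 to 3603 CPM in the ZT6 and ZT10 replicates and 1009 to 1840 CPM in the other replicates. Its mean was 1083 CPM at ZT22, against 1284 CPM at ZT18 and 1302 CPM at ZT14. By the time test 8 of the 10 changed, so these markers are no fixed measure of cell number. Relative to that sum, *Vip* was 0.851 ± 0.257 at ZT6 and 0.952 ± 0.0822 at ZT10, against 0.738 ± 0.0571 at ZT14, 1.07 ± 0.394 at ZT18, 1.52 ± 0.0706 at ZT22 and 1.20 ± 0.438 at ZT2. On this scale ZT6 and ZT10 did not stand above the other timepoints. Because the sum was itself higher at ZT6 and ZT10, dividing by it lowers a daytime peak of any origin. In a bulk sample, fewer cells of a type and less RNA per cell cannot be told apart. Summed oligodendrocyte markers (8 genes, all changed with time) were 4849 to 6181 CPM at ZT14 and ZT18, where *Vip* was lowest, and 1329 to 4470 CPM elsewhere. The ZT2 replicate with the low *Vip* value, C, had 4470 CPM of these markers, against 2184 and 2637 CPM in its 2 companions. The part of these cell type differences in the *Vip* result was not tested. Cortical interneurons also make VIP, and the 7 tested markers of that list summed to 56.5 to 321 CPM over all replicates. They summed to 216 to 321 CPM at ZT14, where *Vip* had its lowest mean, and to 87.6 to 218 CPM at ZT6, where it had its highest. Single genes weigh heavily in this sum, as *Sst* reached 7378 reads in a library and *Pvalb* 2161, against at most 892 for the others. The 3 markers of the list called by the time test were highest at ZT22, unlike the sum. The part of cortical interneurons in the *Vip* reads was not tested.

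*Vipr2*, the VPAC2 receptor gene, was lowest late in the light phase and highest in the middle of the night, a smaller change than that of *Vip*. The ZT10 replicates had 190, 173 and 184 CPM and the ZT18 replicates 328, 334 and 324 CPM, without overlap. The 2 timepoints were picked as the lowest and highest means, so this separation is no test. The means were 183 ± 8.78 CPM at ZT10 and 329 ± 4.69 CPM at ZT18, a 1.80-fold difference (log2 0.85). Its level ranked 705th of the genes tested, with 3905 to 10388 reads per replicate.

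The remaining *Vipr2* timepoints lay between these. The ZT6 replicates had 185, 210 and 253 CPM (mean 216 ± 34.6) and the ZT14 replicates 250, 216 and 226 CPM (mean 231 ± 17.5). The ZT22 replicates were the most spread, with 376, 198 and 238 CPM (mean 271 ± 93.1), and the ZT2 replicates had 237, 262 and 346 CPM (mean 282 ± 56.7). Replicate A of ZT22 held the highest *Vipr2* level of all 18 replicates, while replicate B of the same timepoint lay within the range of ZT6. In descending order of means (ZT18, ZT2, ZT22, ZT14, ZT6 and ZT10), the replicates of every pair of neighbours overlapped.

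*Vipr2* changed over the 6 timepoints (edgeR, q = 0.0242), as did 44% of all genes tested. It also passed JTK_CYCLE (p = 0.013, exact null distribution) with its best lag at ZT22, and 29.9% of all genes passed both tests. The log2 difference between ZT18 and ZT10 was 0.81 to 0.88 with any 1 replicate left out, and the time test was called in 14 of these 18 fits. Its q was 0.0506 without ZT10 replicate A, 0.0648 without ZT10 replicate B, 0.0548 without ZT10 replicate C and 0.0536 without ZT18 replicate B. The q was 0.0568 with the reads recovered from the normalized table. By edgeR 0 of its 6 steps passed the threshold, 1 had an unadjusted p under 0.05 and DESeq2 called 0. The log2 difference from ZT14 to ZT18, inside a cluster, was 0.51 (95% interval 0.08 to 0.94, q = 0.27) and the replicates did not overlap. From ZT2 to ZT6 it was -0.38 (SE 0.20, q = 0.157), from ZT6 to ZT10 -0.24 (SE 0.20, q = 0.685) and from ZT10 to ZT14 0.34 (SE 0.20, q = 0.288). From ZT18 to ZT22 it was -0.28 (SE 0.20, q = 0.384), which passed the threshold without ZT22 replicate A (-0.59, q = 0.0384), and from ZT22 to ZT2 it was 0.06 (SE 0.20, q = 1). Of the variance of the *Vipr2* timepoint means, 63.6% lay between clusters.

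Summed markers gave *Vipr2* another pattern than *Vip*. Relative to the SCN neuron marker sum, *Vipr2* was 0.0667 ± 0.0200 at ZT6 and 0.0665 ± 0.00409 at ZT10. All replicates of these timepoints lay below those of the others (0.143 to 0.314). The sum was itself higher at ZT6 and ZT10, where *Vipr2* had its lowest means. A low ratio there therefore follows from the sum and tells nothing further about *Vipr2*. Astrocyte markers (8 genes, all changed with time) summed to 2952 to 3916 CPM at ZT6 and ZT10, 4123 to 5611 CPM at ZT14 and ZT18 and 6422 to 8632 CPM at ZT22 and ZT2. Their part in the *Vipr2* result was not tested.

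Within a replicate, *Vip* stood furthest above *Vipr2* at ZT6 and ZT10. The ratio of their levels per kb of annotated exons, which needs no scaling between libraries, was 16.7 ± 0.106 at ZT6 (16.6 to 16.8 over replicates) and 18.9 ± 2.81 at ZT10 (16.2 to 21.8). It was 5.50 ± 1.15 at ZT14, 5.34 ± 1.47 at ZT18, 8.41 ± 1.90 at ZT22 and 8.97 ± 4.22 at ZT2. The 6 replicates of ZT6 and ZT10 all lay above the other 12, whose ratios were between 4.12 and 11.9. The lowest of these was ZT2 replicate C, in which *Vip* was the lowest and *Vipr2* the highest of the 3 ZT2 replicates. No test was run on this ratio.

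**Figure D3:**
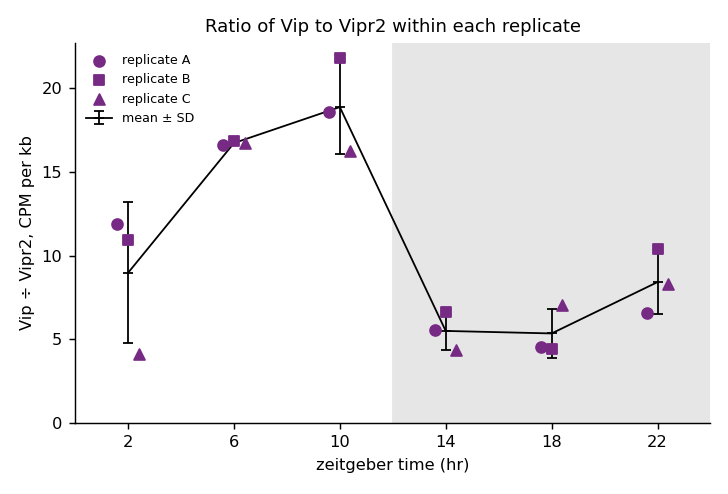
Ratio of *Vip* to *Vipr2* (each in CPM per kb of exons, linear axis) in each replicate against zeitgeber time (hr), with the mean ± SD of n = 3 in black and lights off in grey. The replicates of ZT6 and ZT10 lie between 16.2 and 21.8 and all others between 4.12 and 11.9.

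*Vipr1*, the VPAC1 receptor gene, was close to the limit of detection at ZT6 and ZT10 and low throughout. The ZT6 replicates had 4, 3 and 0 reads and the ZT10 replicates 0, 12 and 1 reads. The 2 zeros allow up to 0.142 CPM (ZT6 replicate C) and 0.146 CPM (ZT10 replicate A), which is 3 reads in each library. The ZT14 replicates had 60, 90 and 178 reads, or 1.67, 2.61 and 4.89 CPM. The ZT14 replicates lay above all ZT6 and ZT10 replicates. The ZT18 replicates had 1.44, 0.193 and 2.44 CPM, the ZT22 replicates 0.616, 2.02 and 3.30 CPM, and the ZT2 replicates 2.38, 0.129 and 1.77 CPM. These 3 timepoints overlapped ZT14, and ZT2 and ZT18 overlapped ZT10 as well, whereas all ZT22 replicates lay above the highest ZT10 replicate (0.521 CPM).

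Summed over the replicates of a timepoint, *Vipr1* had 7 reads at ZT6 (0.107 CPM, exact Poisson 95% interval 0.0431 to 0.221) and 328 at ZT14 (3.07 CPM, 2.75 to 3.43), intervals that cover counting error only. Between replicates its spread was far wider, and *Vipr1* was not called as changing with time (edgeR, q = 0.0561) or by JTK_CYCLE (p = 0.144, exact null distribution). The step from ZT2 to ZT6 had a log2 difference of -3.69 (SE 1.42, q = 0.0533) and that from ZT10 to ZT14 3.96 (SE 1.40, q = 0.061), both across clusters. Inside clusters the log2 differences were 0.83 (SE 1.38, q = 0.871) from ZT6 to ZT10, -1.18 (SE 1.23, q = 0.768) from ZT14 to ZT18 and -0.47 (SE 1.22, q = 1) from ZT22 to ZT2, and from ZT18 to ZT22, across clusters, 0.55 (SE 1.22, q = 0.811). DESeq2's likelihood ratio test called the change with time (q = 0.00649), as did the test without a filter beyond 1 count in any replicate (q = 0.0359). So did the fits without ZT2 replicate B (q = 0.0443), ZT10 replicate B (q = 0.0194), ZT18 replicate B (q = 0.0437) or ZT18 replicate C (q = 0.0466).

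Markers of cells from outside the SCN moved with *Vipr1* in part. The 8 telencephalic excitatory neuron markers, among them *Slc17a7* and *Neurod6*, summed to 67.7 to 167 CPM in the ZT6 and ZT10 replicates and 186 to 349 CPM at ZT14. At ZT18 they summed to 86.1 to 143 CPM, with a mean of 113 CPM against 112 CPM at ZT10, while *Vipr1* averaged 1.36 CPM at ZT18 and 0.189 CPM at ZT10. In these libraries *Neurod2* and *Emx1* were each at 0 in 1 library, and 4 of the 8 changed with time. The highest sums were those of ZT14 replicate C (349 CPM), ZT22 replicate B (342 CPM) and ZT22 replicate C (291 CPM), in which *Vipr1* had 4.89, 2.02 and 3.30 CPM. Without these 3 libraries, an alternative chosen after seeing the data that leaves ZT22 with a lone sample assumed to vary like the other groups, the *Vipr1* log2 difference between ZT14 and ZT6 was 4.27, against 4.79 with all libraries, and its time test gave q = 0.234. In that fit *Vip* had q = 0.00807 and *Vipr2* q = 0.00727. Of 8 T cell markers, 4 passed the filter on low counts, and *Cd3e*, *Cd3d*, *Cd3g* and *Cd8a* did not. The 4 that passed summed to 5.73 to 37.4 CPM, with the highest sum, 37.4 CPM, in ZT14 replicate B. The sum was 8.47 CPM in ZT14 replicate C, which held the most *Vipr1*. A single gene weighs heavily in this sum, as *Cd4* ranged from 0 reads (in 3 libraries) to 1147. The highest count was 317 for *Lck*, 107 for *Trac* and 22 for *Cd2*. The part of these cells in the *Vipr1* reads was not tested.

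**Figure D4:**
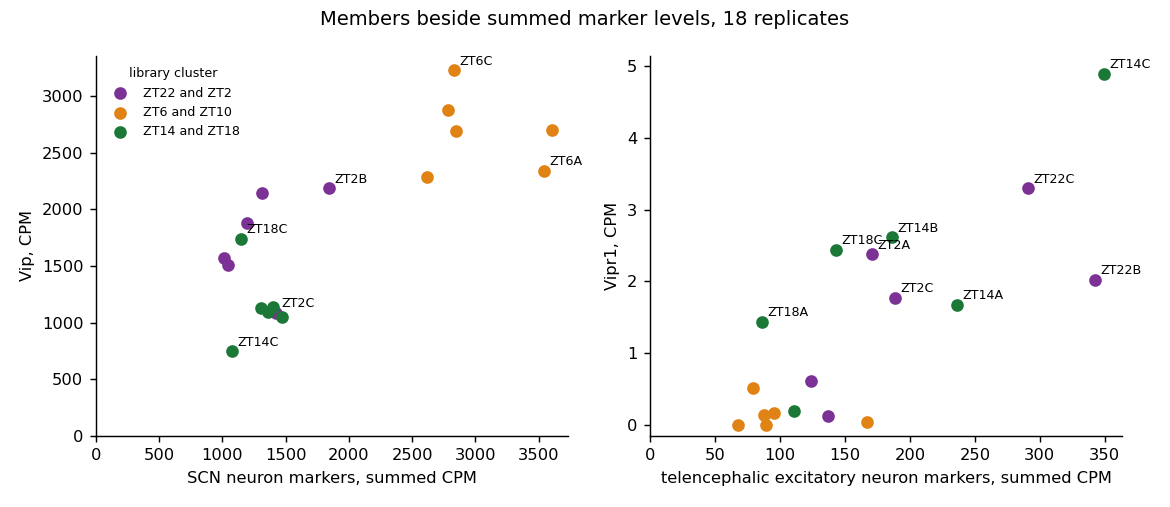
*Vip* (CPM) against the summed CPM of 10 SCN neuron markers (left), and *Vipr1* (CPM) against the summed CPM of 8 telencephalic excitatory neuron markers (right), with 1 point per replicate, coloured by library cluster, and some replicates named. The ZT6 and ZT10 replicates lie apart at the upper right of the left panel, and the *Vipr1* level of 4.89 CPM in ZT14 replicate C goes with the highest telencephalic marker sum, 349 CPM.

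Per kb of exons and averaged over the 18 replicates, *Vip* was at 545 CPM per kb, *Vipr2* at 56.4 and *Vipr1* at 0.233. The order of these levels was the same in every replicate, with *Vip* between 220 and 950 CPM per kb, *Vipr2* between 38.8 and 84.1 and *Vipr1* between 0 and 0.844.

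The genes of PACAP and its receptor PAC1, the partners most closely related to VIP and VPAC2, were highest at different timepoints, ZT10 and ZT2. Both were well above their lowest means at ZT14. *Adcyap1*, which encodes PACAP, was low, with 14.1 ± 3.35 CPM at ZT10, 12.9 ± 2.80 at ZT14 and 1.65 ± 0.478 at ZT22 (edgeR, q = 0.00424). Without the 3 libraries with most telencephalic markers its q was 0.0532. *Adcyap1r1*, which encodes PAC1, had 237 ± 52.0 CPM at ZT2, 214 ± 15.8 at ZT22 and 97.8 ± 23.6 at ZT6 (q = 0.000125). *Adcyap1r1* fell by a log2 of 1.28 from ZT2 to ZT6 (q = 0.000149), and rose by 0.81 from ZT10 to ZT14 (q = 0.0123) and by 0.75 from ZT18 to ZT22 (q = 0.0175), all across clusters. Both genes passed JTK_CYCLE, with best lags at ZT10 (p = 0.000986) and ZT22 (p = 0.0239, exact null distributions). Like *Vipr2*, *Adcyap1r1* had its best lag at ZT22, but its second high point at ZT14 (177 ± 17.4 CPM) has no counterpart in the *Vipr2* means. Of the 12 related peptides and receptors listed, 8 were tested and these 2 were the ones called by the time test, which called 44% of all genes. The receptors for secretin, GLP-1, GLP-2 and GIP and the peptides secretin and GHRH averaged 0.132 to 1.62 CPM. *Gcg*, *Gcgr*, *Gip* and *Ghrhr* did not pass the filter.

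The peptide maturation and granule genes, which process precursors such as that of VIP and package the products, changed with time in 11 of 12 cases, against 44% of all genes tested. From ZT10 to ZT14, when *Vip* fell, 5 of the 12 were called, all of them lower at ZT14 (16.8% of all genes called). The median log2 difference of the 12 was -0.45, against 0.12 for all genes. In the step from ZT18 to ZT22, 5 rose and 3 fell (18.1% of all genes called). The list sum averaged 12582 CPM at ZT2 and 9494 CPM at ZT6, unlike *Vip*, which had its highest mean at ZT6. *Chga*, which encodes the granule protein chromogranin A, was 659 ± 173 CPM at ZT10 and 24.5 ± 7.36 at ZT22 (q = 2.77e-08). *Pcsk1n*, which encodes an inhibitor of the prohormone convertase PC1, was 205 ± 10.4 CPM at ZT6 and 6.49 ± 0.830 at ZT2 (q = 3.09e-12). *Pam*, the enzyme that amidates the ends of peptides including VIP, was 653 ± 204 CPM at ZT6 and 104 ± 34.5 at ZT22 (q = 6.06e-05). *Cadps2*, a factor for the release of dense-core granules, was 327 ± 76.7 CPM at ZT2 and 119 ± 20.6 at ZT14 (q = 1.60e-05). Between clusters lay 99.7%, 97.3%, 88.3% and 88.5% of the variance of the timepoint means of *Pcsk1n*, *Chga*, *Pam* and *Cadps2*. In the steps inside clusters edgeR called 0 of the 12 genes and DESeq2 0, and 6 had an unadjusted p under 0.05 in at least 1 step.

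Downstream of the receptors, 18 of 26 genes of Gs and cAMP signalling changed with time, against 44% of all genes tested. From ZT10 to ZT14, 7 rose and 3 fell (16.8% of all genes called), and from ZT2 to ZT6, 6 rose and 9 fell (33.8% of all genes called). *Crtc1*, a coactivator of CREB that responds to cAMP and calcium, went from 5.0 ± 1.83 CPM at ZT22 to 148 ± 10.9 at ZT14 (q = 4.52e-08). *Gnb2*, a G protein beta subunit, was 201 ± 52.6 CPM at ZT6 and 34.3 ± 12.95 at ZT2 (q = 1.89e-06). *Prkacb*, a catalytic subunit of protein kinase A, had 769 ± 192 CPM at ZT2 and 271 ± 23.4 at ZT10 (q = 1.68e-05). *Adcy1*, an adenylyl cyclase stimulated by calcium, was 259 ± 147 CPM at ZT22 and 29.5 ± 4.51 at ZT6 (q = 3.01e-05). In the steps inside clusters edgeR called 0 of the 26 and DESeq2 4, and 6 had an unadjusted p under 0.05.

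Among receptor partners and genes of desensitisation, 7 of 13 changed with time, a share near the 44% of all genes tested. *Rgs16*, which speeds the shutdown of G protein signalling and marks SCN neurons, was 336 ± 43.0 CPM at ZT6 and 54.9 ± 7.97 at ZT18 (q = 1.33e-07). It was the one gene of the 5 pathway lists that edgeR called inside clusters, with a fall from ZT6 to ZT10 (log2 -1.38) and a rise from ZT22 to ZT2 (log2 1.31). *Ramp1*, a partner protein of class B receptors, was 177 ± 39.5 CPM at ZT18 and 23.7 ± 2.29 at ZT22 (q = 7.33e-08). *Rgs4*, another brake on G proteins, was 356 ± 113 CPM at ZT22 and 52.3 ± 23.7 at ZT6 (q = 7.98e-05), and *Grk6*, a receptor kinase, was 29.8 ± 6.51 CPM at ZT18 and 10.7 ± 2.89 at ZT2 (q = 0.000827).

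Of 10 genes listed as regulators of VIP neurons or of *Vip*, 7 changed with time and the same count passed both tests, against 44% and 29.9% of all genes tested. From ZT10 to ZT14, 4 were called, all of them lower at ZT14, where 16.8% of all genes were called. *Six3*, a homeobox factor of the SCN, was 303 ± 29.9 CPM at ZT6 and 74.6 ± 5.07 at ZT18 (q = 6.63e-08), and *Six6*, its relative, was 182 ± 31.4 CPM at ZT10 and 45.8 ± 11.1 at ZT22 (q = 1.66e-06). The clock output factor *Dbp*, which binds D-boxes, was 105 ± 4.76 CPM at ZT6 and 12.9 ± 2.93 at ZT18 (q = 1.68e-07). *Rora*, a nuclear receptor of the clock, was 554 ± 88.9 CPM at ZT6 and 156 ± 18.2 at ZT18 (q = 5.33e-07). All 4, picked from the list by their small q, had their best JTK_CYCLE lag at ZT6 or ZT10, and *Vip* had its own at ZT6. The whole list was more mixed. Of the 7 called genes, 4 were highest at ZT6, 1 at ZT10, 1 at ZT2 and 1 at ZT22. From ZT2 to ZT6, 5 rose and 2 fell (33.8% of all genes called). The list sum averaged 2898 CPM at ZT2 and 2799 CPM at ZT6. In the steps inside clusters edgeR called 0 of the 10 and DESeq2 5, and 6 had an unadjusted p under 0.05. *Six3*, *Six6* and *Rgs16* are also in the list of SCN neuron markers.

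The genes whose levels ran most like each member over the 18 replicates are given as a description, with Pearson's r of log2 CPM among genes that averaged 10 counts or more. The replicates share their library clusters, so each r is given with the r after the mean of each cluster was subtracted. For *Vip* these were *Tceal8* (0.947, and 0.780 within clusters), *Pnrc1* (0.934 and 0.721) and *Lyrm2* (0.932 and 0.751), all highest at ZT6 and lowest at ZT14. With cluster means subtracted the closest were *Hs6st2* (0.876), *Arl4a* (0.838) and *Bcap29* (0.819). For *Vipr2* they were *Wdr1* (0.839 and 0.770), *Bbs2* (0.833 and 0.719) and *Stk36* (0.829 and 0.728), and within clusters *Rnf2* (0.904), *Paip2* (0.885) and *Kifc3* (0.864). For *Vipr1* they were *Nr3c2*, which encodes the mineralocorticoid receptor (0.866 and 0.721), *Lynx1* (0.841 and 0.562) and *Sirpa* (0.832 and 0.682), and within clusters *Fdx1l* (0.760), *Ccdc88c* (0.754) and *Gm14248* (0.740). Except for *Rnf2* at 0.761 and *Bcap29* at 0.598, the genes found within clusters had an r of at most 0.342 over all replicates.

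The number of reads behind *Vip* and *Vipr2* differed between the deposited tables at ZT6 and ZT10, as it did for most genes. In these replicates 36.8% to 47.1% of 26118 shared genes had identical reads, against 94.7% to 96.3% in the others. Among genes with at least 10 reads in both tables, the median log2 ratio was -0.13 to -0.11 there and 0 elsewhere. Whole reads recovered from the authors' normalized values were 8.04% to 8.68% fewer than the deposited counts for *Vip* in these 6 replicates and 8.24% to 10.5% fewer for *Vipr2*. In the other 12 replicates the 2 tables differed by at most 2 reads for either gene, and for *Vipr1* they were identical in all 18. With the recovered reads the *Vip* difference between ZT6 and ZT14 was a log2 of 1.62 and the *Vipr2* difference between ZT18 and ZT10 a log2 of 0.75.

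**Figure D5:**
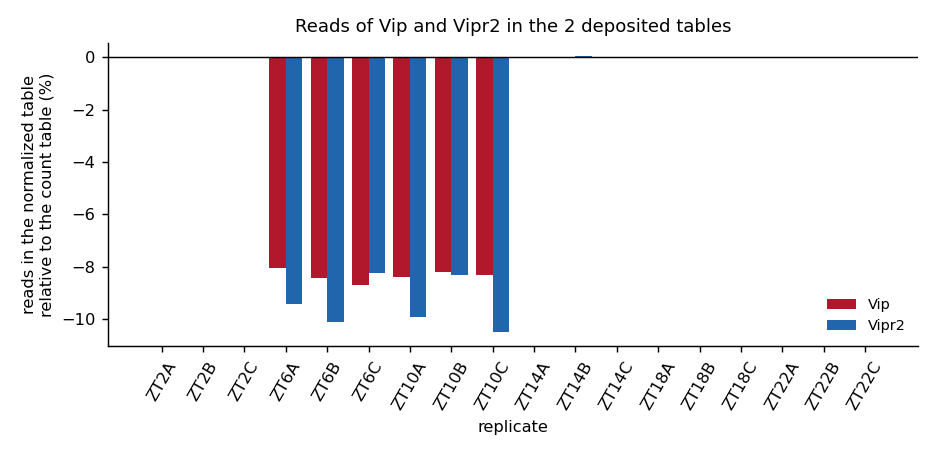
Reads of *Vip* and *Vipr2* recovered from the deposited normalized values relative to those in the deposited count table (percent, linear axis) in each of the 18 replicates. The ZT6 and ZT10 replicates hold between 8.04% and 10.5% fewer reads in the normalized table, and the other 12 differ by at most 2 reads.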

How the data were processed

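RNA from laser-captured SCN (18 pools of 5 mice, 3 per timepoint, 3 lanes each) was amplified by the SMARTer protocol and sequenced. Per the labels the authors used GSNAP, mm10/GRCm38 and HTSeq 0.5.4p1, and they deposited whole-number read counts per Ensembl gene with lanes combined and not normalized. Their second deposited table holds normalized signal, which is the count over a size factor, and from it 100% of values came out as whole reads (tolerance 0.1 read). No sample column was left unused (0). Whether counting used strand is not given in the sources used here. Replicates are separate pools, and pairs differed beyond sampling noise (chi-square per gene 31.7 to 142).

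edgeR 4.0.16 (R 4.3.3) gave TMM CPM, a quasi-likelihood F-test over timepoints and 6 successive contrasts from one fit, with Benjamini–Hochberg q under 0.05 over the 18941 genes. Intervals use the t distribution of that fit. JTK_CYCLE was rewritten (24 hr, 6 lags, exact null) and tested on simulated data with the edgeR fit. Its p was adjusted over the 6 lags and not over genes. DESeq2 1.42.0, limma 3.58.1 (cosinor), other size factors, other filters, a replicate block, recovered reads and leaving out replicates were alternatives. Symbols (97.2% matched) and exon lengths are GENCODE M21, promoters RefSeq GRCm38.p6. Beside the members, *Adcyap1* and *Adcyap1r1*, the genes named were up to 4 per list with the smallest q and without replicate overlap between highest and lowest timepoint, and the closest 3 by r. Members and lists were chosen with earlier results of these data known, and *Cd3e*, *Cd3d*, *Cd3g*, *Cd8a* and the genes below the filter are named as absent only.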

Additional observations from a re-analysis of the deposited data

How the results depend on the processing

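The change of *Vip* over time and its fall from ZT10 to ZT14 kept direction and call under every alternative run, among them DESeq2, other size factors, other filters, recovered reads and each of the 18 fits that left out a replicate. Its log2 difference between ZT6 and ZT14 was 1.36 to 1.62 in those 18 fits and 1.37 to 1.69 otherwise. JTK_CYCLE stayed past the threshold for *Vip* and *Vipr2* throughout (highest p = 0.0497, exact null distribution). *Vipr1* gave no value with at least 10 counts in every replicate, which removes it. The letters A, B and C are not said to pair replicates. Residuals of same-letter replicates correlated with a median of 0.00 (-0.19 to 0.10), with 1 of 45 pairs over 0.1. The letters were therefore treated as numbers only. With 3 replicates per timepoint this check cannot show that no replicates were paired. Fitting them as a replicate block moved the genes called from ZT6 to ZT10 from 9 to 2 and no other count by over 1.5 times, and changed no call of a member.

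Calls that appeared or disappeared are these, and the cause was not tested. For *Vip* from ZT2 to ZT6 the log2 difference was 0.64 with at least 10 counts in every replicate and 0.71 with recovered reads, and 0.30 to 0.77 with a replicate left out. For *Vipr2* over time it was 0.75 with recovered reads and 0.81 to 0.88 with a replicate left out. From ZT18 to ZT22 *Vipr2* differed by -0.59 to -0.10 with a replicate left out. For *Vipr1* over time it was 4.76 with DESeq2, 4.71 without a filter beyond 1 count and 4.23 to 5.34 with a replicate left out. Its step from ZT2 to ZT6 was -3.79 with DESeq2, -3.74 without that filter and -4.23 to -3.11 with a replicate left out, and its step from ZT10 to ZT14 was 3.92 with DESeq2 and 3.40 to 6.74 with a replicate left out. Cosinor regression gave *Vipr1* p = 0.0113, and leaving out replicates gave it JTK_CYCLE p = 0.0497 to 0.443 (exact null distribution).

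Steps that were not called changed sign when a replicate was left out. From ZT6 to ZT10 the range was -0.18 to 0.055 for *Vip* and -1.95 to 1.39 for *Vipr1*. From ZT22 to ZT2 it was -0.029 to 0.42 for *Vip*, -1.05 to 0.11 for *Vipr1* and -0.12 to 0.37 for *Vipr2*. From ZT18 to ZT22 it was -0.034 to 1.27 for *Vipr1*. Without the 3 libraries highest in telencephalic markers, ZT2 minus ZT22 was -0.060 for *Vip*, 1.20 for *Vipr1* and -0.41 for *Vipr2*, and ZT22 minus ZT18 was -1.13 for *Vipr1* and 0.19 for *Vipr2*.

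The background counts moved most inside clusters. From ZT6 to ZT10 (9 genes) there were 246 with DESeq2, 4 with at least 10 counts in every replicate, 16 without a filter beyond 1 count and 2 to 50 with a replicate left out. From ZT14 to ZT18 (108 genes) there were 842 with DESeq2, 71 with upper-quartile factors, 245 with at least 10 counts in every replicate and 0 to 225 with a replicate left out (0 when B or C of ZT18, or A of ZT14, was missing, with at least 1899 genes at an unadjusted p under 0.05). From ZT22 to ZT2 (6 genes) there were 34 with DESeq2, 10 with DESeq2 size factors, 16 with at least 10 counts in every replicate, 14 without a filter beyond 1 count and 1 to 17 with a replicate left out. Across clusters, leaving out a replicate gave 1993 to 3937 genes from ZT10 to ZT14 and 2097 to 4104 from ZT18 to ZT22. Without the 3 libraries edgeR called 0 genes from ZT6 to ZT10 (1511 at an unadjusted p under 0.05, 115 by DESeq2), 0 from ZT22 to ZT2 (378 and 25), 2 from ZT14 to ZT18, 1738 from ZT10 to ZT14 and 507 from ZT18 to ZT22, and 3322 genes passed both tests for a rhythm (5670 with all libraries). Of the PACAP list 1 gene instead of 2 was then called, as *Adcyap1* had q = 0.0532, and no other pathway list moved by over 1.5 times under any alternative run. With 3 pools per timepoint, changes of *Vipr1* could not be measured closely, since its lowest libraries hold 0 reads.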
